A study of Mus musculus with 12 samples.

Results

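The MHC class I presentation genes followed here are H2-K1, H2-D1, B2m, Tap1, Tap2, Tapbp, Psmb8, Psmb9, Psmb10 and Nlrc5, taken by name as 10 of the 33696 genes in the deposited count matrices. All 10 passed the filter on low counts in every comparison below. They were read in single T cells (CD90.2-positive cells) sorted as live red or green cells after magnetic enrichment of CD4 and CD8 cells from tumours of MC38, a colon carcinoma line of mice, by RNA, hashtag and T cell receptor sequencing. All mice were of the genotype Kaedehet, which carries Kaede, a fluorescent protein that violet light converts from green to red. All had the tumour-draining lymph node lit on day 14 after tumour implantation, so a red T cell in the tumour had been in the lit node, while a green one had not been converted and may be resident or have come from elsewhere. The 6 conditions were no treatment (NT) and 12 Gy of radiation (RT), each collected 24 h (day 1) or 72 h (day 3) later, and FTY720 alone and RT with FTY720, both collected at day 3. FTY720 acts on sphingosine-1-phosphate receptors and keeps lymphocytes in lymphoid organs; it was given once, as 10 µg on day 15. Each condition had 2 replicate pools of 4 tumours, and the red and green cells of a pool carried separate hashtags, so that 12 pools gave 24 hashed samples.

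MHC class I molecules show peptides from inside a cell to CD8 T cells, and T cells carry them as nearly all other cells do. H2-K1 and H2-D1 encode the classical heavy chains, which hold the peptide, and B2m encodes the light chain that every such molecule needs. Psmb8, Psmb9 and Psmb10 encode the catalytic subunits that turn a proteasome into an immunoproteasome, Tap1 and Tap2 form the transporter that brings peptides into the endoplasmic reticulum, and Tapbp encodes tapasin, which loads them. Nlrc5 encodes the transactivator of class I genes, and interferons are the best known inducers of the whole set.

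The promoters of 8 of the 10 members were found in RefSeq windows of the mouse build GRCm38.p6. These windows run from 250 bases before to 50 after a start, and Tap2 and Nlrc5 had no entry. Motif matches in windows, and their shares below, cover only the 250 bases before a start. The matrices use another build, mm39. The bases before the starts of 6 members are shown because the members moved together below, with the matches to the motifs searched for in capitals. Motifs were searched on both strands and some share letters: AANNGAAA (the core of elements bound by interferon regulatory factors), the same letters with GA before them (the interferon-stimulated response element, which contains the former), TTCNNNGAA (the gamma-activated sequence bound by STAT factors), the NF-kappaB consensus, TGACG (a cyclic AMP response element core) and CCAAT. Each stretch below ends at the base before the start of its gene, read 5′ to 3′ on the gene's strand. The stretches are H2-K1 at chr17:34000348-34000517 (minus strand), H2-D1 at chr17:35262884-35263093 (plus), B2m at chr2:122147517-122147686 (plus) and Psmb8 at chr17:34198065-34198194 (plus). Tap1 and Psmb9 start back to back, and the bases between them at chr17:34187331-34187555 are read on the strand of Tap1.
H2-K1: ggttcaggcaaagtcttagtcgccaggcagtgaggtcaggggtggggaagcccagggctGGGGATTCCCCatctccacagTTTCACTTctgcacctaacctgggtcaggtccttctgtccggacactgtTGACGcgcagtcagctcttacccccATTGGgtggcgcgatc
H2-D1: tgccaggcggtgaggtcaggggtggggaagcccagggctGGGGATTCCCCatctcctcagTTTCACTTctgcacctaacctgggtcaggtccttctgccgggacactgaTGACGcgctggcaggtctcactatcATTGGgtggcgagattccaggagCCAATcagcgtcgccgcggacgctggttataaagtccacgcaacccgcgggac
B2m: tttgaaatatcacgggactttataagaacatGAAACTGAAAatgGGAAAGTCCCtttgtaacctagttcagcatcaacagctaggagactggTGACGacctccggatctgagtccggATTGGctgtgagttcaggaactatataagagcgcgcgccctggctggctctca
Psmb8: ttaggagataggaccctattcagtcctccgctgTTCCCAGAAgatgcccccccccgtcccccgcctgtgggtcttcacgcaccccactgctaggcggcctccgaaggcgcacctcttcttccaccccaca
Tap1 and Psmb9: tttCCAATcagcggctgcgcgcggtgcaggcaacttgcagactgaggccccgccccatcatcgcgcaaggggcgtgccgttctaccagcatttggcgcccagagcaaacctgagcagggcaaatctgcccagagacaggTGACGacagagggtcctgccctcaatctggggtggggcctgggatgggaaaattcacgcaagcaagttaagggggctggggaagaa

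H2-K1 and H2-D1 shared an unbroken run of 47 bases, 141 to 95 bases before the start of H2-K1 and 201 to 155 before that of H2-D1, which holds the NF-kappaB consensus. AANNGAAA was found in the windows of H2-K1, H2-D1 and B2m, and in 21.3% of all 32851 windows. The NF-kappaB consensus was found in the same 3 members and in 7.25% of all windows. The interferon-stimulated response element was found in B2m (2.98% of all windows) and TTCNNNGAA in Psmb8 (7.02%). TGACG was found in H2-K1, H2-D1, B2m, Tap1 and Psmb9 (17.8% of all windows), and CCAAT in these 5 and Tapbp (33.8%). The 250 bases before the start of Psmb10 held none of the 6 motifs. A match describes letters in a window and does not show that a factor binds there.

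After filtering, 2740 of 2816 barcodes remained. There were 17 to 322 cells and 337319 to 7891316 UMIs (counted RNA molecules) per hashed sample, and the wells shared 0 barcodes. Marker genes named 584 cells as Treg-like (regulatory), 1423 as CD8-like, 246 as naive CD8-like, 405 as CD4 conventional-like and 64 as naive CD4-like. These counts include cells of 3 clusters without a name of their own (525 cells), which were assigned cell by cell from Cd8a, Cd8b1, Cd4 and Foxp3 UMIs, and 18 of them that could not be assigned were left out. The 10 members made up 1.2715% of all UMIs. Each replicate used 1 well for both day 1 conditions and NT at day 3 and 1 well for the remaining 3 conditions, so RT against NT at day 3 crosses wells, while the day 1 comparison and RT under FTY720 stay within them. For the wells of replicate 2 the matrices' hashtag names exchange red and green relative to the tag numbers in the labels for 12 hashtags, and colours below follow the matrices.

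Every member was detected in each class. In CD8-like cells the share with at least 1 UMI ran from 86.3% for Psmb10 to 99.5% for H2-K1, at a median depth of 22641 UMIs per cell, and in Treg-like cells, at 19617, from 84.6% for Psmb10 to 100.0% for H2-K1. Thinned to 5000 UMIs per cell, which left out 61 CD8-like and 21 Treg-like cells, Tap2 had a UMI in 54.8% of CD8-like and 75.8% of Treg-like cells (90.7% and 96.6% unthinned), and Psmb10 in 56.0% and 55.1% (86.3% and 84.6% unthinned). Levels below are CPM, the usual scale of UMIs relative to the library total, of the summed UMIs of a pool and class, scaled by the trimmed mean of M values (TMM). For this paragraph all classes were scaled together, and levels are described without a test because the classes were built from the same cells.

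Treg-like cells had the highest mean level of 8 of the 10 members, all but Psmb10 and Nlrc5. H2-K1 stood at 5157 ± 1468 CPM in Treg-like cells (SD, n = 12 pools), 4790 ± 1149 in CD4 conventional-like cells (n = 11), 3671 ± 1115 in CD8-like cells (n = 12), 3040 ± 956 in naive CD4-like cells (n = 5) and 2761 ± 473 in naive CD8-like cells (n = 9). Neighbours in this order are no further apart than the larger of their SDs. The means do not cover the same pools. Of the irradiated day 3 pools, only RT day 3 replicate 2 had 5 cells or more of the naive CD8-like or naive CD4-like class. The other classes had all of these pools, so the order of the means mixes class with radiation. Compared within pools, H2-K1 was higher in CD8-like than in CD4 conventional-like cells in 0 of 11. It was higher in CD8-like than in naive CD8-like cells in 9 of 9, with a mean log2 difference of 0.19 ± 0.14 (SD). It was higher in CD8-like than in Treg-like cells in 1 of 12, with a mean log2 difference of -0.49 ± 0.27 (SD).

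The transporter genes separated these classes most: Tap2 differed by -0.82 ± 0.14 and Tap1 by -0.66 ± 0.15 on the log2 scale (CD8-like minus Treg-like, SD over 12 pools), and CD8-like cells were higher in 0 of 12 pools for both. H2-D1 (-0.51 ± 0.22), Psmb8 (-0.27 ± 0.13) and Psmb9 (-0.25 ± 0.12) were also higher in CD8-like cells in 0 of 12 pools, and B2m (-0.24 ± 0.19) and Tapbp (-0.36 ± 0.32) in 1 of 12. Psmb10 and Nlrc5 went the other way, with CD8-like cells higher in 8 of 12 and 10 of 12 pools. Psmb10 had its highest mean in naive CD8-like cells, at 251 ± 65.5 CPM (n = 9), and Nlrc5 in CD4 conventional-like cells, at 352 ± 107 (n = 11), each within 1 SD of the next class in order. Of the 246 naive CD8-like cells, 112 came from clusters without a name of their own and were assigned cell by cell.

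**Figure D1:**
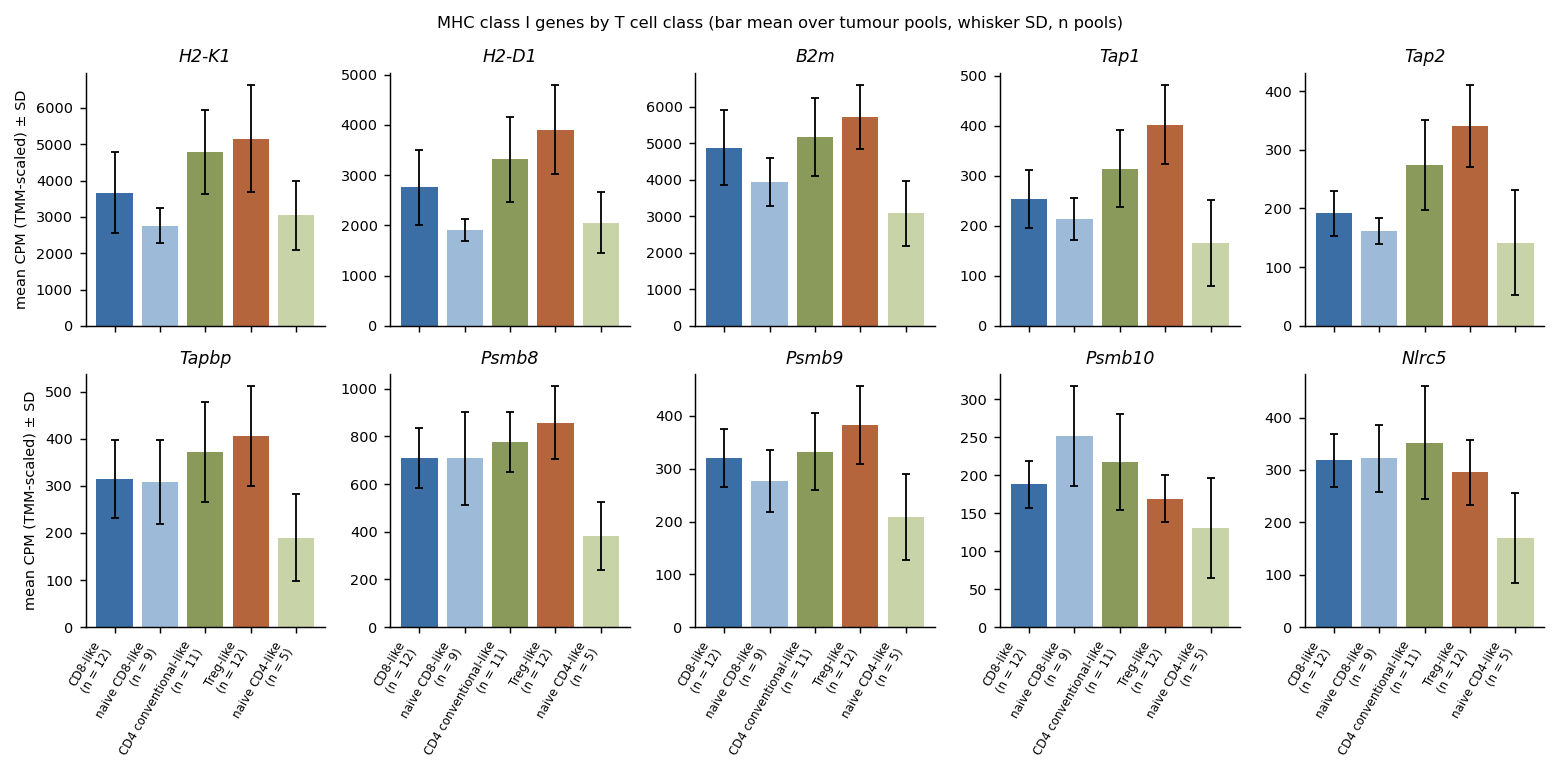
Level of each MHC class I gene in CPM (vertical axis) by T cell class (horizontal axis). Bars are means over tumour pools, which are not the same pools in every class, and whiskers are SD. Treg-like cells are highest for 8 of the 10 genes, while Psmb10 is highest in naive CD8-like and Nlrc5 in CD4 conventional-like cells.

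Radiation effects were compared over pools with edgeR's quasi-likelihood test on summed counts, with Benjamini-Hochberg adjustment over all genes tested and a threshold of 0.05. At day 1 after 12 Gy, none of the 10 members passed the test in CD8-like cells, although all 10 had a positive log2 difference. H2-K1 stood at 2456 and 2655 CPM in the NT day 1 pools and at 2787 and 3026 in the RT day 1 pools. The irradiated pools were the higher ones and did not overlap with the untreated ones. The difference of H2-K1 was 0.19 ± 0.10 on the log2 scale (SE; 95% interval -0.05 to 0.43; edgeR adjusted p = 1.00).

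The largest day 1 estimates were those of Tapbp and Tap2: Tapbp stood at 229 and 211 CPM without and 260 and 300 with radiation, and Tap2 at 149 and 148 without and 184 and 192 with it. Neither gene's pools overlapped. Tapbp differed by 0.35 ± 0.14 (95% interval 0.02 to 0.68; edgeR adjusted p = 0.729) and Tap2 by 0.34 ± 0.12 (0.04 to 0.64; adjusted p = 0.667). In all, 0 of 10 members passed with edgeR and 0 with DESeq2, 2 (Tap2 and Tapbp) lay below an unadjusted 0.05, and 0.105% of the 10509 genes tested passed. The members' median was 0.19, that of all genes 0.00. Both irradiated pools lay above both untreated ones for 8 of 10 members, all but Psmb8 and Psmb10, against 20.2% of all genes.

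At day 3 after radiation the heavy and light chains of class I were higher in CD8-like cells by a fold of 1.36 to 1.53, and by 1.47 to 1.76 where FTY720 had also been given. H2-K1 stood at 2971 and 3146 CPM in the NT day 3 pools and at 4427 and 4880 in the RT day 3 pools. With FTY720 it stood at 2816 and 3168 without and at 5475 and 5083 with radiation. All 4 irradiated pools lay above all 4 unirradiated ones. H2-K1 rose 1.52-fold without FTY720 (log2 0.61 ± 0.10 SE, 2 against 2 pools, edgeR adjusted p = 0.00262) and 1.76-fold under it (log2 0.82 ± 0.10, adjusted p = 0.000915).

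H2-D1 stood at 2273 and 2278 CPM (NT), 3471 and 3484 (RT), 1987 and 2358 (FTY720) and 4089 and 3413 (RT with FTY720). It rose by 0.61 ± 0.11 on the log2 scale without FTY720 (edgeR adjusted p = 0.00408) and by 0.79 ± 0.11 under it (adjusted p = 0.00152). H2-K1 and H2-D1 share long near-identical stretches with each other and with nonclassical class I genes, so the split of reads between them is uncertain. B2m, which has no such copy among the members, stood at 4467 and 4335 CPM (NT), 5712 and 6229 (RT), 3876 and 4403 (FTY720) and 6383 and 5782 (RT with FTY720). B2m rose by 0.44 ± 0.09 (edgeR adjusted p = 0.0136) and by 0.55 ± 0.09 (adjusted p = 0.00428).

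**Figure D2:**
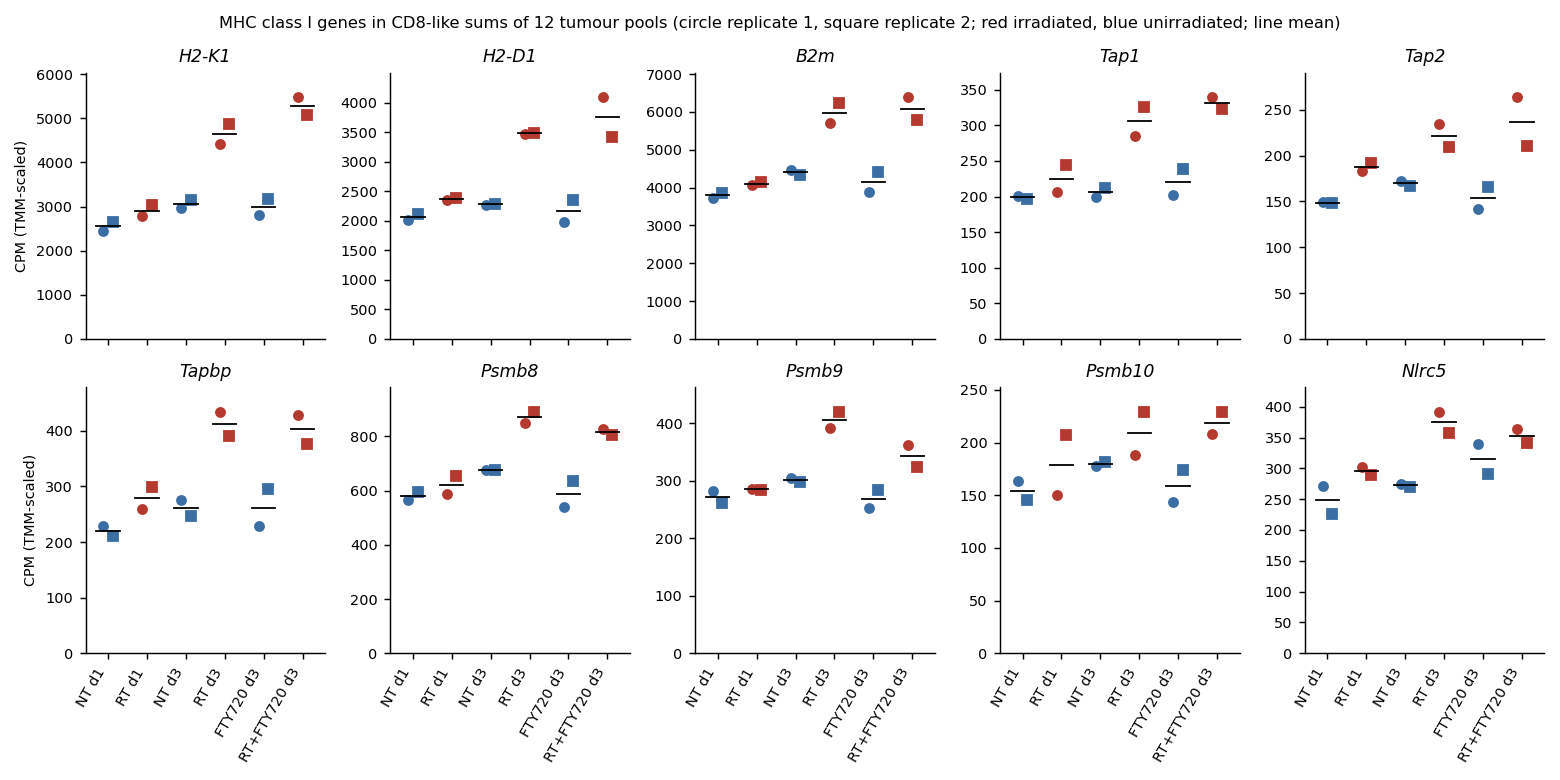
CPM of each member (vertical axes, from 0) in the CD8-like sums of the 12 tumour pools, by condition (horizontal axis); circles are replicate 1, squares replicate 2, red irradiated, blue unirradiated, and lines means. At day 3 every irradiated pool is above every unirradiated pool for all 10 genes, for example at 4427 to 5475 against 2816 to 3168 CPM for H2-K1.

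Among the peptide transport and loading genes, Tap1 stood at 200 and 212 CPM (NT), 285 and 326 (RT), 202 and 239 (FTY720) and 339 and 322 (RT with FTY720). It rose by 0.57 ± 0.13 without FTY720 (edgeR adjusted p = 0.0174) and by 0.57 ± 0.14 under it (adjusted p = 0.0244). Tapbp rose by 0.66 ± 0.14 (edgeR adjusted p = 0.0139) and 0.60 ± 0.15 (adjusted p = 0.03), from 276 and 247 to 434 and 391 CPM and, under FTY720, from 228 and 295 to 429 and 377. Its 4 irradiated pools lay above the 4 others. Tap2, the partner of Tap1, rose under FTY720 by 0.60 ± 0.14 (edgeR adjusted p = 0.0251) and differed by 0.38 ± 0.13 without it (adjusted p = 0.117).

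The immunoproteasome genes had day 3 estimates of 0.22 to 0.47. Psmb8 stood at 677 and 677 CPM (NT), 848 and 891 (RT), 538 and 635 (FTY720) and 827 and 804 (RT with FTY720), with no overlap between irradiated and unirradiated pools. It rose by 0.47 ± 0.11 under FTY720 (edgeR adjusted p = 0.0229) and differed by 0.36 ± 0.11 without it (adjusted p = 0.0668). Psmb9 passed in the other setting, by 0.43 ± 0.11 without FTY720 (edgeR adjusted p = 0.0335) against 0.34 ± 0.12 under it (adjusted p = 0.104). Psmb10 passed in neither, at 0.22 ± 0.17 (edgeR adjusted p = 0.515) and 0.44 ± 0.18 (adjusted p = 0.172). The transactivator Nlrc5 stood at 275 and 270 CPM (NT) and 392 and 357 (RT), and rose by 0.46 ± 0.12 (edgeR adjusted p = 0.0463). Under FTY720 its pools stood at 339 and 291 without and 363 and 342 with radiation, a difference of 0.17 ± 0.13 (adjusted p = 0.493).

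In counts, 7 of 10 members were higher in CD8-like cells at day 3 without FTY720 (4.08% of 10509 genes were) and 7 of 10 under it (3.71% of genes), with medians of 0.45 and 0.56. All 4 irradiated pools lay above all 4 unirradiated ones for 10 of 10 members, against 8% of all genes. Nlrc5 and Psmb9 passed without FTY720 and not under it, Tap2 and Psmb8 the reverse, and the difference between the settings was not tested. Without FTY720, radiation and the well cannot be told apart at day 3. With 2 pools a condition the counts depend on single pools. Without FTY720 the count was 3 without NT day 3 replicate 1, 2 without NT day 3 replicate 2, 4 without RT day 3 replicate 1 and 3 without RT day 3 replicate 2, and under FTY720 it was 3 without FTY720 day 3 replicate 1 and 3 without RT with FTY720 day 3 replicate 1. H2-K1 and H2-D1 passed in each of these fits.

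**Figure D3:**
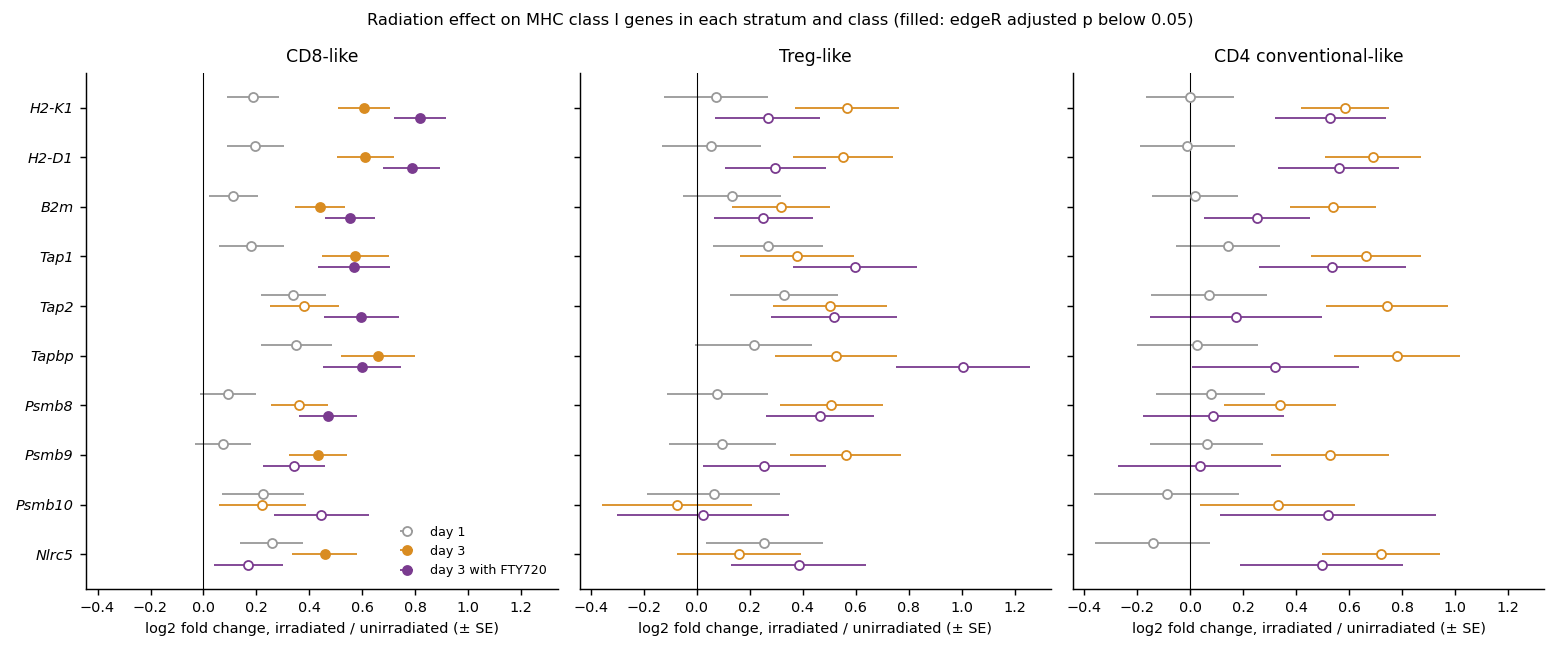
Log2 fold change of irradiated over unirradiated pools (horizontal axis, bars ± SE) for each member (vertical axis) at day 1, day 3 and day 3 with FTY720, in 3 classes. Filled points have an edgeR adjusted p below 0.05: 7 members at day 3 and 7 at day 3 with FTY720, all in CD8-like cells, and 0 in the other panels, where several day 3 estimates are as far from 0 but have wider errors.

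Averaged over the 3 strata (day 1, day 3, and day 3 with FTY720; 6 irradiated against 6 unirradiated pools), 9 of 10 members rose in CD8-like cells, where 6.64% of all genes did. The rises were 0.54 ± 0.06 for H2-K1 (edgeR adjusted p = 9.11e-05), 0.53 ± 0.06 for H2-D1, 0.37 ± 0.05 for B2m, 0.44 ± 0.07 for Tap1, 0.44 ± 0.08 for Tap2 and 0.54 ± 0.08 for Tapbp. Psmb8 rose by 0.31 ± 0.06, Psmb9 by 0.28 ± 0.06 and Nlrc5 by 0.29 ± 0.07 (edgeR adjusted p = 0.0179), while Psmb10 differed by 0.30 ± 0.10 (adjusted p = 0.0651). The members' median was 0.40 and that of all genes -0.01. Leaving out 1 pool at a time gave 8 to 10 members.

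Whether the effect itself differed between days was tested as a contrast. The day 3 effect minus the day 1 effect was 0.42 ± 0.14 for H2-K1 (95% interval 0.08 to 0.76; edgeR adjusted p = 0.224) and had a median of 0.32 over the members. None of the 10 passed with edgeR or DESeq2, 5 lay below an unadjusted 0.05, and 0.714% of genes passed.

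The make-up of the CD8-like cells moved with radiation at day 3. Clusters 4 and 14, led by interferon-stimulated genes such as Ifit1, Mx1 and Ifi204, held 57.0% of the 149 irradiated CD8-like cells at day 3 against 5.89% of the 526 unirradiated ones, and 7.88% against 2.39% at day 1. By pool the irradiated shares at day 3 ran from 47.8% to 63.0% and the unirradiated ones from 4.11% to 17.5%. These clusters are defined by genes that themselves differ between the groups, so the shares are a description. With both clusters left out, a setting added after the data were seen, 0 of 10 members passed at day 3 (H2-K1 at 0.41, edgeR adjusted p = 0.202). Under FTY720 H2-K1 alone passed (0.61, adjusted p = 0.0446), and over the 3 strata 3 did: H2-K1 (0.39), H2-D1 (0.39) and Tapbp (0.44). The estimates of all 10 members stayed positive in these 3 fits, and DESeq2 was not run on them. At day 3 the fits left out 85 of the 149 irradiated and 31 of the 526 unirradiated CD8-like cells. The part of this loss of cells in the counts was not tested, and the share of all genes passing in these fits is not given.

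Within single clusters, where cells are not replicates and no test was made, the mean share of H2-K1 was above that of unirradiated cells in each of the 5 CD8-like clusters compared at day 3 (0, 1, 7, 8 and 14). Cluster 0, led by Gzmk, held 45.4 H2-K1 UMIs per 10000 UMIs in 14 irradiated cells and 41.1 in 124 unirradiated ones. Cluster 1, led by Gzmf and Styk1, held 43.9 (16 cells) and 31.1 (154 cells), and cluster 7, led by Cnih2 and Nrgn, 39.6 (11 cells) and 31.2 (86 cells). Cluster 8, led by Cphx1 and Gzma, held 50.8 (9 cells) and 39.7 (26 cells). The interferon-led cluster 14 held 54.7 (51 cells) and 50.5 (16 cells), and cluster 4, which is not of 1 class, 61.9 (82 cells) and 48.8 (48 cells).

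Single CD8-like cells showed the same split of irradiated from unirradiated pools at day 3. The 10 members together took a median of 116 and 123 UMIs per 10000 in the NT day 3 pools and of 170 and 176 in the RT day 3 pools. The medians were 113 and 125 with FTY720 alone and 179 and 169 with radiation and FTY720. All 4 irradiated medians lay above the 4 others, while the 10th to 90th percentiles of the cells overlapped. At day 1 the medians were 101 and 108 without and 111 and 121 with radiation.

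**Figure D4:**
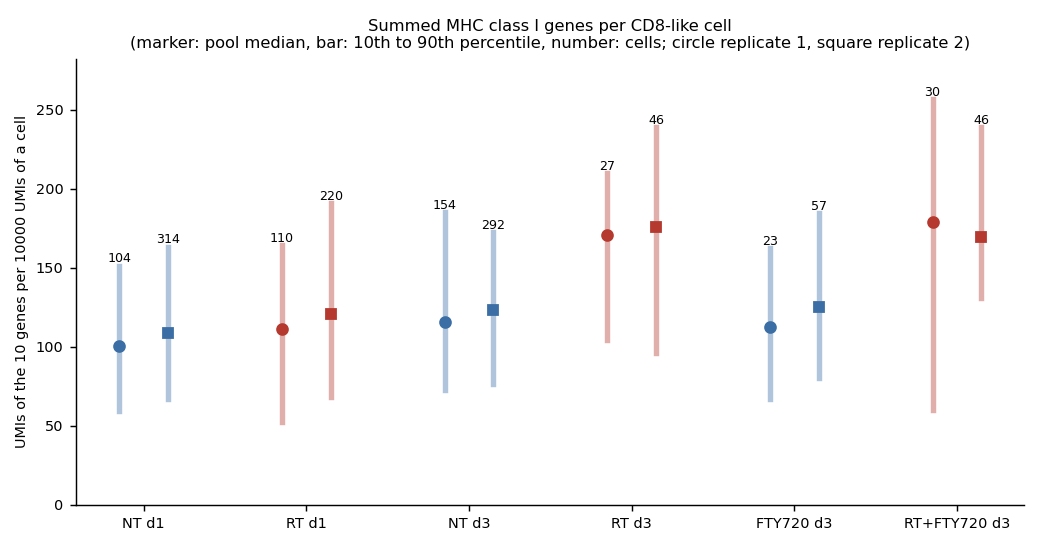
UMIs of the 10 members per 10000 UMIs of a CD8-like cell (vertical axis) by pool (horizontal axis, circles replicate 1, squares replicate 2; red irradiated, blue unirradiated). Markers are pool medians, bars the 10th to 90th percentile of cells, and numbers above them the cells counted; day 3 irradiated medians are 169 to 179, day 3 unirradiated ones 113 to 125.

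Markers of other cell types in the CD8-like sums were compared between the same day 3 groups. The 8 myeloid markers summed to 112 to 185 CPM in unirradiated and 157 to 219 in irradiated pools, with none at 0. The B cell markers summed to 38.1 to 78.3 and 10.0 to 24.3 CPM, with Ms4a1 at 0 in both, and the NK markers to 75.3 to 109 and 31.7 to 78.9. Dendritic cell markers summed to at most 1.09 and 2.02 CPM and tumour or stroma markers to at most 5.11 and 9.18. The median mitochondrial share was 1.68% of UMIs in unirradiated and 1.125% in irradiated cells. The part of these in the members' values was not tested.

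In Treg-like cells no member passed the radiation test. At day 3 H2-K1 stood at 5508 and 4948 CPM (NT), 7705 and 7775 (RT), 5259 and 5294 (FTY720) and 5477 and 7221 (RT with FTY720). The RT with FTY720 replicate 1 pool lay below one NT pool, so the groups overlapped. H2-K1 differed by 0.57 ± 0.20 (edgeR adjusted p = 0.303) without and 0.27 ± 0.20 (adjusted p = 0.675) with FTY720. Tapbp stood at 351 and 357 (NT), 478 and 538 (RT), 210 and 332 (FTY720) and 505 and 631 CPM (RT with FTY720), with no overlap. It had the largest estimate over the 3 strata, 0.58 ± 0.14 (95% interval 0.25 to 0.91; edgeR adjusted p = 0.0622).

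For 6 of 10 members (H2-D1, Tap1, Tap2, Tapbp, Psmb8 and Psmb9) all 4 irradiated Treg-like pools at day 3 lay above all 4 unirradiated ones, against 3.14% of genes. Over the 3 strata 0 members passed with edgeR (0.966% of 8285 genes did), 8 lay below an unadjusted 0.05, and the median was 0.30. DESeq2 called 4 (Tap1, Tap2, Tapbp and Psmb8), and edgeR called Tapbp without RT with FTY720 day 3 replicate 1. At day 1 edgeR and DESeq2 called 0, with 0 below an unadjusted 0.05 (0.0241% of genes passed; median 0.11). At day 3 both tools called 0, with 6 below an unadjusted 0.05 (0.374% of genes; median 0.51). Under FTY720 edgeR called 0 and DESeq2 1 (Tapbp), with 4 below an unadjusted 0.05 (0.0724% of genes). These sums held as few as 8 cells. Clusters 4 and 14 held 0% of the Treg-like cells of both groups at day 3, while cluster 2 held 30 of 56 irradiated and 58 of 185 unirradiated cells and cluster 5, led by Frmd5 and Il10, 21 and 107. The members together took 162 UMIs per 10000 in cluster 2 and 191 in cluster 5 over all conditions. Myeloid markers in these sums stood at 132 to 216 CPM in unirradiated and 67.0 to 166 in irradiated pools, with Csf1r at 0 in the latter, and B cell markers at 219 to 479 and 116 to 230, with Ms4a1 and Cd79a at 0 in the latter. The part of the clusters and of these markers in the members' values was not tested.

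The difference between the classes was tested directly. Over the 3 strata the CD8-like minus the Treg-like radiation effect was 0.26 ± 0.13 for H2-K1 (95% interval -0.06 to 0.58), 0.05 ± 0.15 for Tap1 and -0.03 ± 0.16 for Tapbp, with a median of 0.05. None of the 10 passed with edgeR or DESeq2, and 0 lay below an unadjusted 0.05 (0.00997% of 10028 genes passed). At day 1 none passed either, with 0 by DESeq2, 0 below an unadjusted 0.05 and 0.00997% of genes.

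CD4 conventional-like cells had the highest median estimate of the 3 classes at day 3, 0.62, from 8 to 95 cells per pool, and no member passed with edgeR. H2-D1 stood at 2907 and 2766 CPM (NT), 3979 and 5168 (RT), 2966 (FTY720, 1 pool) and 4529 and 4220 (RT with FTY720). The 4 irradiated pools lay above the 3 unirradiated ones for H2-D1, H2-K1, B2m and Tap1, that is 4 of 10 members against 5.21% of genes. H2-D1 differed by 0.69 ± 0.18 at day 3 (edgeR adjusted p = 0.0665) and H2-K1 by 0.58 ± 0.17 (adjusted p = 0.101). With edgeR 0 of 10 members passed at day 3 (2.51% of 8635 genes did) and 8 lay below an unadjusted 0.05, while DESeq2 called 7. The share of all genes called by DESeq2 is not given, here or in the other comparisons. Its counts of members therefore cannot be set against all genes. The edgeR count was 1 (H2-D1) without FTY720 day 3 replicate 2, and 3 (H2-K1, H2-D1 and B2m) without RT with FTY720 day 3 replicate 1 and again without replicate 2.

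Over the 3 strata edgeR called 0 members in CD4 conventional-like cells (1.91% of genes) with 7 below an unadjusted 0.05 and a median of 0.34, and DESeq2 called 4. The edgeR count was 1 (H2-K1) without RT with FTY720 day 3 replicate 1 and 2 (H2-K1 and H2-D1) without replicate 2. At day 1 the median was 0.02, with 0 called by edgeR or DESeq2, 0 below an unadjusted 0.05 and 0% of genes. Under FTY720 the unirradiated side was 1 pool of 13 cells, whose spread was assumed to be that of the other conditions. On that assumption edgeR called 0 (0.0232% of genes) with 2 below an unadjusted 0.05, and DESeq2 1 (H2-K1), which has no replicate check on the unirradiated side. Clusters 4 and 14 held 73.9% of the 46 irradiated and 19.0% of the 147 unirradiated cells of this class at day 3, and myeloid markers summed to 13.2 to 170 and 90.7 to 130 CPM in the same groups. The part of both in these values was not tested. In naive CD8-like cells only day 1 could be fitted: 0 members passed by edgeR or DESeq2, 0 lay below an unadjusted 0.05, 0.012% of genes passed and the median was 0.06. At day 3 the single irradiated pool of this class with enough cells (RT day 3 replicate 2, 9 cells) held 3731 CPM of H2-K1 and 5097 of B2m, above the NT pools at 2544 and 2470 and at 3496 and 3581.

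Without radiation no member differed past the threshold between days or with FTY720. H2-K1 in untreated CD8-like cells stood at 2456 and 2655 CPM at day 1 and 2971 and 3146 at day 3, without overlap, a difference of 0.26 ± 0.10 (edgeR adjusted p = 0.689). No member passed in untreated tumours between days with edgeR or DESeq2, with 2 below an unadjusted 0.05 in CD8-like cells (0.0571% of genes), 1 in Treg-like cells (0% of genes) and 0 in CD4 conventional-like cells (0% of genes). The medians were 0.20, 0.14 and 0.10. FTY720 alone against NT at day 3 in CD8-like cells, which crosses wells, had a median of -0.08, with intervals such as -0.27 to 0.21 for H2-K1. It gave 0 members and 0% of genes with edgeR, 0 members below an unadjusted 0.05 and 0 by DESeq2.

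Red and green CD8-like cells of the same pools were compared with the pool as a block. Over all 12 pools 0 of 10 members passed with edgeR or DESeq2, where 7.31% of 8979 genes did (4.19% higher and 3.12% lower in red cells), and 2 lay below an unadjusted 0.05. The median was -0.14. Nlrc5 had the largest estimate, -0.32 ± 0.12 (edgeR adjusted p = 0.126), and was higher in red cells in 3 of 12 pools. H2-K1, at -0.06 ± 0.09, was higher in red cells in 6 of 12 pools.

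Split by day, a comparison added after the values had been seen, the red against green estimates of H2-K1 at the 2 days had opposite signs. At day 1 H2-K1 stood at 2048 and 2400 CPM in red and 3015 and 3020 in green cells of the NT pools, and at 2668 and 2548 in red and 3282 and 3686 in green cells of the RT pools. Red was lower in 4 of 4 pools. At day 3 red was higher in 6 of 8 pools, for example at 4628 against 4159 and 5104 against 4625 CPM in the RT pools. The red over green log2 fold change of H2-K1 was -0.43 ± 0.10 at day 1 (edgeR adjusted p = 0.0427), and 0.13 ± 0.07 at day 3 (adjusted p = 0.455).

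At day 1 the other members also had lower estimates in red cells, with -0.50 ± 0.15 for Psmb9 (edgeR adjusted p = 0.0836), -0.44 ± 0.13 for Psmb8 (adjusted p = 0.0831) and -0.26 ± 0.08 for B2m (adjusted p = 0.0994). H2-K1 alone passed, that is 1 of 10 against 1.77% of genes lower, and the members' median was -0.30. The call was made by DESeq2 too. It was lost, to 0 members, without either replicate of any day 1 condition, of NT or RT at day 3 or of FTY720 alone, and kept without either replicate of RT with FTY720 day 3. At day 3 0 members passed with edgeR or DESeq2, 0 lay below an unadjusted 0.05, 0.178% of genes passed, and the median was -0.03. The day 3 minus the day 1 difference was 0.56 ± 0.13 for H2-K1 (95% interval 0.24 to 0.87; edgeR adjusted p = 0.265) and 0.35 ± 0.10 for B2m (adjusted p = 0.373). None of the 10 passed with edgeR or DESeq2, 5 lay below an unadjusted 0.05, and 0.078% of genes passed.

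Red and green CD8-like cells differed in their shares of the clusters. Cluster 9, led by Il2, Ccl3 and Ifng, held 23.2% of red and 1.6% of green cells at day 1, and 8.96% and 0.88% at day 3. At day 1 cluster 8 held 29.6% of red and 2.89% of green cells, cluster 0, led by Gzmk, 13.1% and 37.5%, and cluster 1 8.49% and 27.9%. The mean of the 10 members together was 87.9 UMIs per 10000 in cluster 9 and 137 in cluster 0. In the unirradiated day 3 cells above, the H2-K1 share of cluster 8 was close to that of cluster 0, and that of cluster 1 was lower. The part of the clusters in the colour difference was not tested. With the colours of the labels' tag numbers instead, the day 1 median was 0.01 with 0 members and 0 genes past the threshold. Under that choice the pooled comparison had a median of 0.08 with 0 members.

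**Figure D5:**
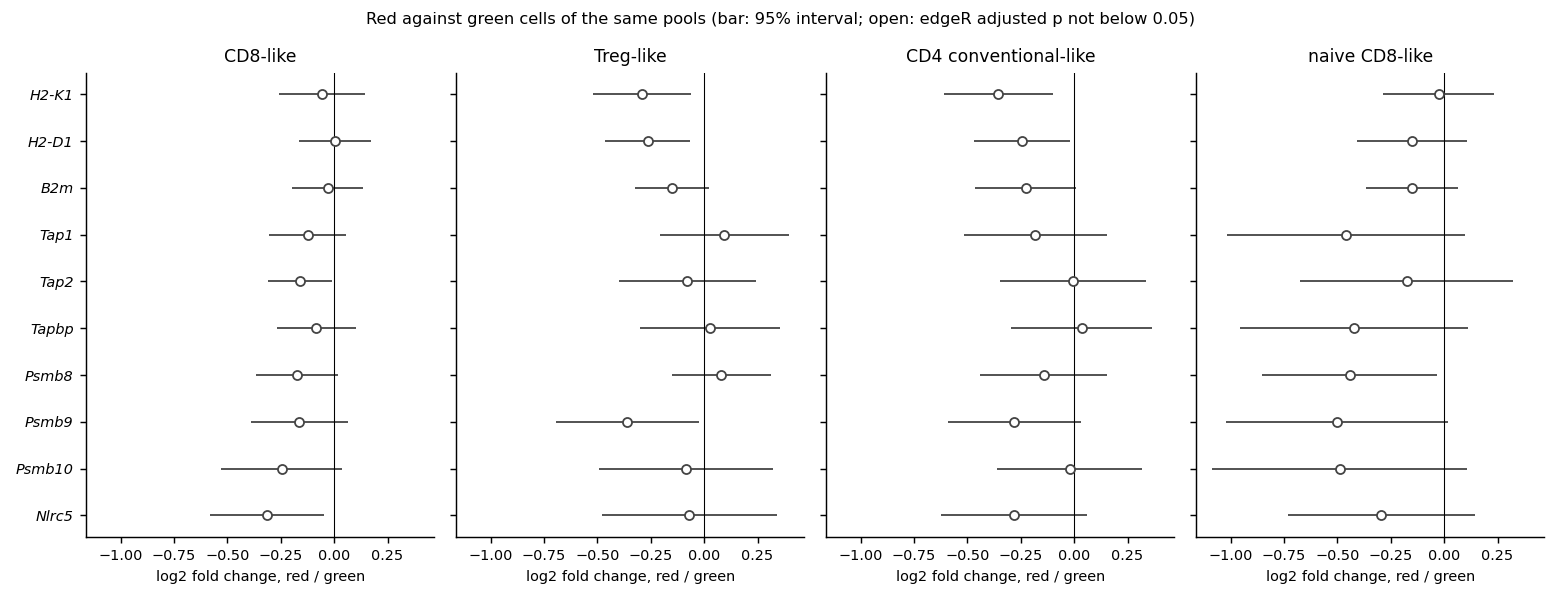
Red over green log2 fold change (horizontal axis, bars 95% intervals) of each member (vertical axis) in 4 classes, over all days. No point has an edgeR adjusted p below 0.05; medians are -0.14 in CD8-like, -0.08 in Treg-like, -0.20 in CD4 conventional-like and -0.36 in naive CD8-like cells.

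In Treg-like cells H2-D1 was lower in red cells in each of the 8 pools with both colours. With the colours of the labels' tag numbers, red and green change places in the replicate 2 pools. Counts of pools by colour therefore depend on the choice of colours, here and in CD4 conventional-like cells. Values under the labels' colours are not given for these classes. The NT day 1 pools held 2849 and 3303 CPM in red and 3829 and 3957 in green cells, and the NT day 3 pools 3976 and 3557 in red and 4042 and 3561 in green. The difference of H2-D1 was -0.27 ± 0.08 (edgeR adjusted p = 0.12) and that of H2-K1 -0.29 ± 0.10 (adjusted p = 0.138). With edgeR 0 of 10 members passed (1.6% of 8702 genes did) with 3 below an unadjusted 0.05, and DESeq2 called H2-D1. Red and green Treg-like cells also differed in their shares of the clusters. At day 1 cluster 5 held 6.1% of red and 68.0% of green cells, cluster 2 58.9% and 28.9%, and cluster 11 32.1% and 1.03%. H2-D1 took 43.7 UMIs per 10000 in cluster 5, 37.3 in cluster 2 and 26.9 in cluster 11, and the part of this in the colour difference was not tested. In CD4 conventional-like cells H2-K1 was higher in red cells in 0 of 7 pools (-0.36 ± 0.10, edgeR adjusted p = 0.382), and 0 members passed with edgeR or DESeq2, with 4 below an unadjusted 0.05 and 0.198% of genes. In naive CD8-like cells 0 passed with either tool, with 5 below an unadjusted 0.05 and 0.161% of genes.

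Radiation was also compared within each colour at day 1 in CD8-like cells. Among green cells the members' median was 0.15, with 0 called by edgeR or DESeq2, 0 below an unadjusted 0.05 and 0.0738% of 8125 genes. Among red cells it was 0.25, with 0 called by either tool, 1 below an unadjusted 0.05 and 0% of 9560 genes. The red minus green effect had a median of 0.09 at day 1 and 0.13 over the 3 strata, with 0 members by either tool and 0% of genes in both, and 0 and 1 below an unadjusted 0.05. For H2-K1 the difference over the strata was 0.07 ± 0.12, with a 95% interval of -0.22 to 0.37.

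Other genes of the pathway were followed as lists in the 3-strata comparison of CD8-like cells, where 6.64% of genes rose and 6.19% fell. Values in parentheses are log2 fold changes unless marked as a fold. Of 11 nonclassical class I genes 10 were tested and 7 rose, with a median of 0.61. H2-T24 (2.38-fold), H2-T22 (0.98), H2-T23 (0.78; Qa-1, which presents to CD8 T and NK receptors), H2-Q4 (0.69), H2-Q6 (0.61) and H2-Q7 (0.61) had the lowest adjusted p. Genes of this list can share near-identical stretches, and so reads, with other class I genes, so their single values are uncertain. Of 10 peptide supply genes 2 rose, the proteasome activator subunits Psme1 (0.26) and Psme2 (0.25), 1 fell, the peptidase Thop1 (-1.73), and the median was -0.04. Of the 4 loading chaperones, which include calreticulin (Calr) and Pdia3, none of 4 passed, with a median of 0.08.

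Of 9 genes of interferon gamma and its signalling 8 were tested and 4 rose, with a median of 0.40, among them the ligand Ifng (0.75 ± 0.21, edgeR adjusted p = 0.0359), the receptor chain Ifngr1 (0.55) and the signalling inhibitor Socs1 (0.61). Of 6 genes of type I interferon signalling 4 rose, with a median of 0.42: Irf7 (1.51 ± 0.10, edgeR adjusted p = 5.99e-06), Stat2 (0.95), Irf9 (0.50) and the receptor chain Ifnar1 (0.34). None of the 9 promoter-binding factors passed (median 0.01), and none of the 4 MHC class II genes tested (median -0.83). Of 9 p53 targets tested, 7 rose, with a median of 0.84, among them the cell cycle inhibitor Cdkn1a (2.17 ± 0.16, edgeR adjusted p = 1.86e-05), Ccng1 (0.96) and Trp53inp1 (0.84).

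The lists were followed in the other comparisons too. At day 1 the lists held 4 genes past the threshold in CD8-like cells, all p53 targets: Phlda3 (4.16), Cdkn1a (2.25), Ccng1 (1.35) and Bax (1.04), with 0.0952% of genes higher. In Treg-like cells over the 3 strata H2-T22 (0.98), H2-T23 (0.70) and Irf7 (1.29) rose, against 0.712% of genes. In CD4 conventional-like cells H2-T22 (0.82), H2-T10 (0.97), Socs1 (0.64), Stat2 (1.00), Irf7 (1.03), Cdkn1a (2.02) and Ccng1 (0.89) rose, against 1.44% of genes.

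Between colours, red CD8-like cells had more Ifng (1.84 ± 0.33, edgeR adjusted p = 0.00374) and Psme2 (0.33) and less Ifngr1 (-0.47 ± 0.08, adjusted p = 0.00194) and H2-Q4 (-0.49). The promoter factors Nfkb1 (0.62) and Nfyb (0.36) and the class II invariant chain Cd74 (1.48) were also higher in red cells. Of the 9 nonclassical genes tested 8 did not pass, and the list's median was -0.10. These calls rest on the matrices' colours, and values of the lists under the labels' colours are not given.

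Across the 12 CD8-like pools the 45 pairs of members had Pearson correlations of 0.52 to 0.98, with a median of 0.88. The genes outside the lists whose pattern over these pools was most like the mean of the members, by Pearson correlation, were Ifi213 (0.989), Isg20 (0.985), Slfn1 (0.984), Rnf213 (0.978) and Lgals3bp (0.978). The pools share wells, depth and conditions, so these correlations describe the same contrast as the radiation comparison.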

How the data were processed

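RNA, hashtag and T cell receptor libraries of 4 wells were analysed. The authors deposited UMI counts per gene and cell, made with Cell Ranger 8.0.1 and the build mm39 per the submitters' processing notes; their other steps are not given in the labels. The T cell receptor tables were used only for their deposited counts of chains per cell. Cells with at least 500 genes, at most 10% mitochondrial UMIs and 1 hashtag at 20 UMIs or more and 3 times the next were kept (2740 of 2816). Of these, 90 (3.28%) had 2 or more TCR beta chains; an alternative left them out. Cells were clustered with scanpy 1.11.5 and leidenalg 0.10.2 (2000 variable genes without the members and lists, 30 components, 15 neighbours, resolution 1.0), and clusters named from markers at least 1.25-fold higher in at least 10% of cells. No doublet caller was run. Counts were summed by class within a pool, or within a colour of it, wherever 5 cells or more allowed a sum, and tested in R 4.3.3 with edgeR 4.0.16 (quasi-likelihood, TMM, Benjamini-Hochberg over all genes tested), with DESeq2 1.42.0 as an alternative. The test was checked on simulated data.

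Radiation was fitted over all conditions without a replicate block, colours with the pool as a block. Conditions with the same replicate number and well shared a 10x well per the labels, and their deviations correlated at 0.02 to 0.14. Those of conditions in different wells correlated at -0.07 to 0.13. Replicates are pools of 4 tumours each. Day 3 radiation in Treg-like and CD4 conventional-like cells, the class and colour differences over 3 strata, FTY720 alone, colours by day and the fits without interferon-led clusters were added after the data were seen. The members and lists were chosen with earlier results of these data known. All members are named, with at most 6 genes of each other list past the threshold, by adjusted p, and the 5 most similar genes. Genes at long identical copies can share reads. UMI totals limit counting error only. Some values are not reported here.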

Additional observations from a re-analysis of the deposited data

How the results depend on the processing

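No estimate that stood past the threshold changed sign in any alternative run. Counts of members past the threshold that moved by over 1.5 times, with the smaller losses in CD8-like cells, were as follows. With interferon-led clusters left out, CD8-like counts were 3 over the 3 strata, 0 at day 3 and 1 under FTY720, and red against green was 1 over all days and 3 at day 1. With clusters without a lineage name left out, the CD8-like counts were 6 over the 3 strata (Psmb8, Psmb9 and Nlrc5 lost), 5 at day 3 (Psmb9 and Nlrc5 lost) and 3 under FTY720, and with no filter on low counts the day 3 count was 5 (the same genes lost). Without unnamed clusters the day 3 minus day 1 colour count was 1, which was also 1 with no filter on low counts. DESeq2 gave 4 in Treg-like and 4 in CD4 conventional-like cells over the 3 strata, 7 in CD4 conventional-like cells at day 3, 1 in each of these classes under FTY720, and 1 for red against green in Treg-like cells. The Treg-like count over the 3 strata was 1 with RLE scaling and 1 without the filter. For CD4 conventional-like cells, a UMI gate gave 3 over the 3 strata and 1 at day 3, and at least 10 cells per sum gave 2 and 3. The single day 1 colour call went to 0 with a UMI gate, with all genes eligible as variable, with at most 5% mitochondrial UMIs, without cells with 2 or more TCR beta chains, and with the labels' colours. Leaving out 1 pool gave 2 to 8 members at day 3 and 3 to 7 under FTY720 in CD8-like cells, 0 to 1 over the 3 strata in Treg-like cells, 0 to 2 over the 3 strata and 0 to 3 at day 3 in CD4 conventional-like cells, and 0 to 1 for the day 1 colours. A lone remaining pool was assumed to vary like the other groups.

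With the replicate block the CD8-like counts were 9, 7 and 7, as without it, and genes called went from 75 to 118 for day 3 minus day 1 and from 0 to 10 for FTY720 alone. Without the pool as a replicate block 3 members passed for the day 1 colours, 288 genes in place of 656 were called for colours over all days in CD8-like cells, 3 in place of 15 in CD4 conventional-like cells and 1 in place of 11 in naive CD8-like cells; no other member call changed. Radiation under FTY720 went with the block from 6 to 11 genes in Treg-like and from 2 to 10 in CD4 conventional-like cells. Not fitted were CD4 conventional-like cells over the 3 strata and under FTY720 without FTY720 day 3 replicate 2, with unnamed or interferon-led clusters left out, and naive CD8-like cells over the 3 strata.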

Other observations

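Among the 16 clusters the 10 members together took the largest mean share of UMIs in cluster 5, a Treg-like cluster led by Frmd5 and Il10 (191 per 10000, 209 cells), and in the interferon-led clusters 14 (188, 71 cells) and 4 (186, 210 cells). The lowest means were in the naive CD8-like cluster 10 (80.4, 134 cells), the naive CD4-like cluster 15 (85.4, 54 cells) and the CD8-like cluster 9 led by Il2 and Ifng (87.9, 139 cells). Within Treg-like clusters at day 3 the summed members stood at 219 per 10000 in irradiated and 174 in unirradiated cells of cluster 2, at 233 and 183 in cluster 5 and at 184 and 137 in cluster 11. In the CD8-like cluster 0 they stood at 134 and 140, the one of the 5 CD8-like clusters compared (0, 1, 7, 8 and 14) in which irradiated cells were not higher. Cells are not replicates, and no test was made.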
